A study of Arabidopsis thaliana with 12 samples.

Results

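A set of 9 genes of the Arabidopsis circadian clock were followed, the evening-phased genes TOC1 (AT5G61380), GI (AT1G22770), ELF3 (AT2G25930), ELF4 (AT2G40080), LUX (AT3G46640) and BOA (AT5G59570) and the ZTL family of photoreceptor F-box proteins, ZTL (AT5G57360), FKF1 (AT1G68050) and LKP2 (AT2G18915). They were chosen by locus identifier and made up 9 of the 33326 genes in the expression table. The table lists 13 transcripts of these genes, and 1 transcript stood for each gene, the one most abundant on average in WT.

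RNA was sequenced from leaf tissue of bou-2 and WT (Col-0) Arabidopsis thaliana, with 3 libraries in each of 4 groups and 12 in all: bou-2 at day, WT at day, bou-2 at night and WT at night. BOU encodes a mitochondrial carrier needed for normal glycine decarboxylase activity in photorespiration, and bou-2 is 1 line in the Col-0 background with a T-DNA insertion in exon 2, so that the mutation and the line cannot be told apart. All plants grew for 35 days at 3000 ppm CO2 with 12 h light and 12 h dark and spent the last 24 h in ambient CO2, given as 400 ppm. Sources differ on the harvest: in the labels it was 2 h past light onset (day) or 2 h ahead of it (night) and took mature leaves, whereas the study's methods give roughly 10 min past and 3 h ahead and whole rosettes. A label field of the day samples also reads end of day. The titles, which read beginning of day and end of night, were followed here.

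The plant clock is a loop of genes that switch one another off in turn. Around dawn the MYB factors CCA1 and LHY hold down the evening genes, among them TOC1, a repressor of the PRR family that in turn represses CCA1 and LHY. ELF3, ELF4 and LUX proteins form the evening complex, a night-time repressor of PRR9, PRR7, GI, LUX itself and the growth regulators PIF4 and PIF5, with ELF3 as the scaffold and LUX, or its close relative BOA, as the DNA-binding subunit. ZTL, FKF1 and LKP2 are blue-light receptors that mark other proteins for degradation. ZTL, held stable by the GI protein, targets TOC1 and PRR5, and FKF1 together with GI removes CDF repressors of the flowering gene CO.

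CCA1 and LHY bind a short promoter sequence known as the evening element, and LUX binds its own site, so the DNA upstream of the annotated gene starts was searched for both for 8 of the 9 genes (all but ELF4), and the windows nearest to the start are shown for the members with an evening element there and for ELF3. The 300 bases before the start were read on the strand of the gene from the TAIR10.1 genome of RefSeq and are written 5′ to 3′. Capitals mark the evening element AAAATATCT in TOC1, LUX, BOA and FKF1 (AGATATTTT where it lies on the opposite strand), the G-box CACGTG in LUX and BOA, and the LUX-binding site GATACG in ELF3 (CGTATC, on the opposite strand).
TOC1 (chr5:24674663-24674962, + strand): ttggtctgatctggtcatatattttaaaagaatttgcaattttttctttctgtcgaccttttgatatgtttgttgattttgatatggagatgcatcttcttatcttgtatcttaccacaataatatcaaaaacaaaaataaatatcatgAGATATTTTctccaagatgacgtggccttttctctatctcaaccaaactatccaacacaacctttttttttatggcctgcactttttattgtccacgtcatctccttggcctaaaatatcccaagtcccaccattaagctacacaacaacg
LUX (chr3:17182742-17183041, + strand): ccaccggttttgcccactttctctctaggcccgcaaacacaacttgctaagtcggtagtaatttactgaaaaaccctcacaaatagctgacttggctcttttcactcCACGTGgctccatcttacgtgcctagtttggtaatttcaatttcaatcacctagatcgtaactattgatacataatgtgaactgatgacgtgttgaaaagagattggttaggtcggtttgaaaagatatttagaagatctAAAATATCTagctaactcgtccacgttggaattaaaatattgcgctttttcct
BOA (chr5:24003588-24003887, + strand): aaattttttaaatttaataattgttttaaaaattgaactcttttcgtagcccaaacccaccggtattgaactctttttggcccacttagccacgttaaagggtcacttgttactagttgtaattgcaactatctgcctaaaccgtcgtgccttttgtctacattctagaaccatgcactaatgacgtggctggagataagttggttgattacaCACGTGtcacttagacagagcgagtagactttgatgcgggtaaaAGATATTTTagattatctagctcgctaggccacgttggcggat
FKF1 (chr1:25508339-25508638, + strand): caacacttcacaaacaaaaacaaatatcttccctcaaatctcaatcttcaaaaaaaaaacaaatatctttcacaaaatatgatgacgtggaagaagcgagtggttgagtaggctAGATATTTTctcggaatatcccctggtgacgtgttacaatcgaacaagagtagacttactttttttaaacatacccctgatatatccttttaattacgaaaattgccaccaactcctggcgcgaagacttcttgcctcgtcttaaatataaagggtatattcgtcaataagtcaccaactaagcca
ELF3 (chr2:11058644-11058943, + strand): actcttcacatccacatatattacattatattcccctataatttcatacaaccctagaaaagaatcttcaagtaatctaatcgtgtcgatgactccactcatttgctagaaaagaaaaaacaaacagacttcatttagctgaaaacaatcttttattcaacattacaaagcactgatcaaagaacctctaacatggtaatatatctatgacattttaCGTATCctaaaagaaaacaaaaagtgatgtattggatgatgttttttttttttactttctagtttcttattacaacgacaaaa

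Within 300 bases the evening element was found, on either strand, in 4 of the 8 genes, and in 2.79% of 27443 windows of the same length before annotated protein-coding genes. LUX and BOA carried it closest to the start, at bases -53 to -45 and -43 to -35, and both also held a G-box, a motif in 7.09% of all windows. With 1000 bases the element was present in 5 of the 8 genes, against 7.24% of all windows, since GI had 3 copies between bases -809 and -583 and FKF1 had a second copy. The LUX-binding site, searched as GATACG or GATTCG, was in the 300-base windows of ELF3 and LKP2 and in 14.3% of all windows. With 1000 bases it was present in 5 of the 8 genes (TOC1, GI, ELF3, LUX and LKP2), against 39.8% of all windows. ZTL held none of the motifs searched within 1000 bases, and LKP2 held the related CCA1-binding site AAAAATCT, which was in 7.94% of all 300-base windows. No match shares a base with a match of another motif. A match describes the letters of the window and is not a measured binding site.

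**Figure D1:**
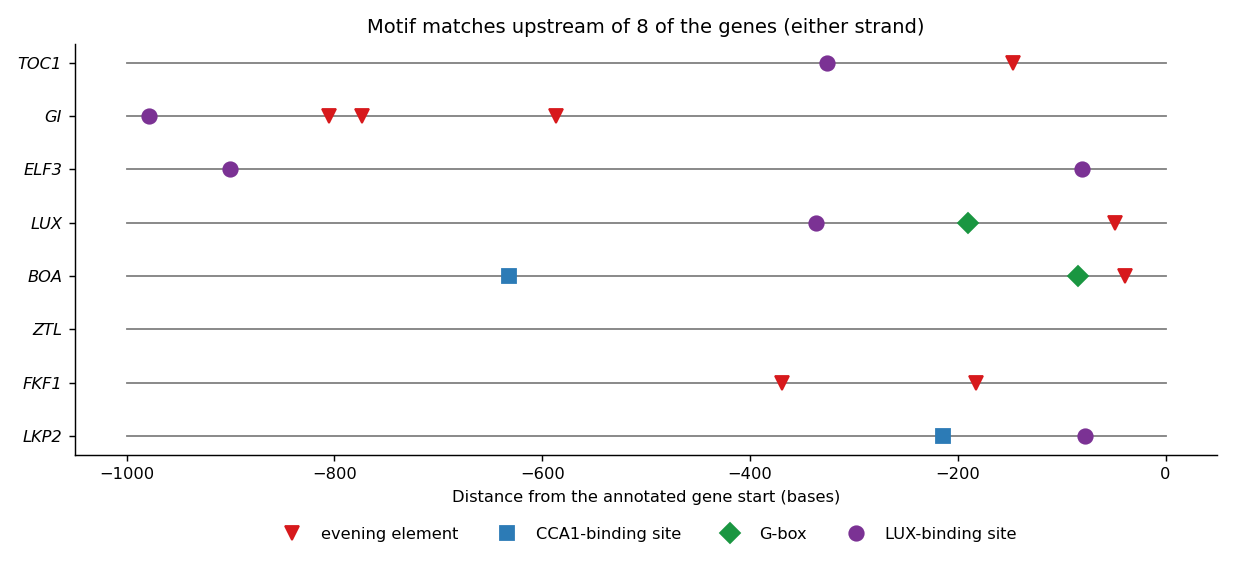
Matches of 4 motifs in the 1000 bases upstream of each of 8 genes. The x axis is the distance from the annotated gene start in bases, each row is a gene and each symbol a match on either strand. The evening element appears in 5 rows, with 3 copies in GI, and the ZTL row is empty.

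The libraries held 15911356 to 33046562 estimated counts, the lowest in bou-2 at day and the highest in WT at day. The 3 WT day libraries differed from one another more than those of any other group, with a chi-square of 56.9 to 91.3 per transcript, against 9.75 to 26.0 in the other 3 groups, and replicates 1 and 2 were the pair farthest apart. BOU transcripts were reduced and not absent in bou-2: they stood at 80.6, 80.7 and 80.2 TPM in bou-2 at day against 230, 139 and 171 TPM in WT at day, and at 65.2, 67.0 and 65.5 TPM in bou-2 at night against 153, 162 and 176 TPM in WT at night. Leaf markers dominated all libraries, but the summed level of RBCS1A, LHCB1.3, LHCB2.2 and RCA was 22794 to 27508 TPM in bou-2 at day against 40412 to 52749 TPM in WT at day, and 25868 to 27822 TPM in bou-2 at night against 43582 to 44502 TPM in WT at night. Not each marker was lower: LHCB2.2 averaged 275 TPM in bou-2 at night against 229 TPM in WT at night. RCA overlapped at day, with 3920.5 to 4034 TPM in bou-2 against 3992 to 4898 TPM in WT. Root markers were at most 0.027 TPM and flower markers at most 1.58 TPM in sum. All values are of bulk tissue, in which fewer cells of a type and less RNA per cell cannot be told apart, and the part of the lower summed leaf marker level in the results below was not tested.

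Levels are given as TPM, a share of all transcripts in a library that is scaled for transcript length and can be compared between genes. Fold changes come from edgeR's quasi-likelihood test on the estimated counts of all 12 libraries, with p-values adjusted by Benjamini-Hochberg over 26153 transcripts, and a gene was called where its adjusted p was under 0.05. These fold changes rest on TMM scaling and can differ slightly from a ratio of TPM means. The primary transcripts of all 9 genes passed the filter on low counts, FKF1 through the bou-2 night libraries only and GI through the day libraries. GI reached the minimum count in all 3 libraries of each day group, in 1 bou-2 night library and in 0 WT night libraries.

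Among the 9 genes ZTL was the most abundant at day, with 29.8 ± 1.90 TPM in bou-2 and 32.3 ± 8.77 TPM in WT (SD, n = 3 each). GI came next in both genotypes, and FKF1 was lowest, at 0.0818 ± 0.0375 TPM in bou-2 and 0.0833 ± 0.116 TPM in WT. In bou-2 at day the neighbours ZTL and GI overlapped, as did ELF3 and LKP2, and in WT at day ELF3 overlapped TOC1, and from ELF4 through BOA and LUX down to FKF1 each gene overlapped the next. At night the order was different. In bou-2 at night ELF3 led with 29.8 ± 0.481 TPM, ahead of ZTL and TOC1, which overlapped, while in WT at night ZTL led with 23.7 ± 2.30 TPM, ahead of TOC1 and ELF3, which overlapped. GI was the lowest of the 9 at night in both genotypes.

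**Figure D2:**
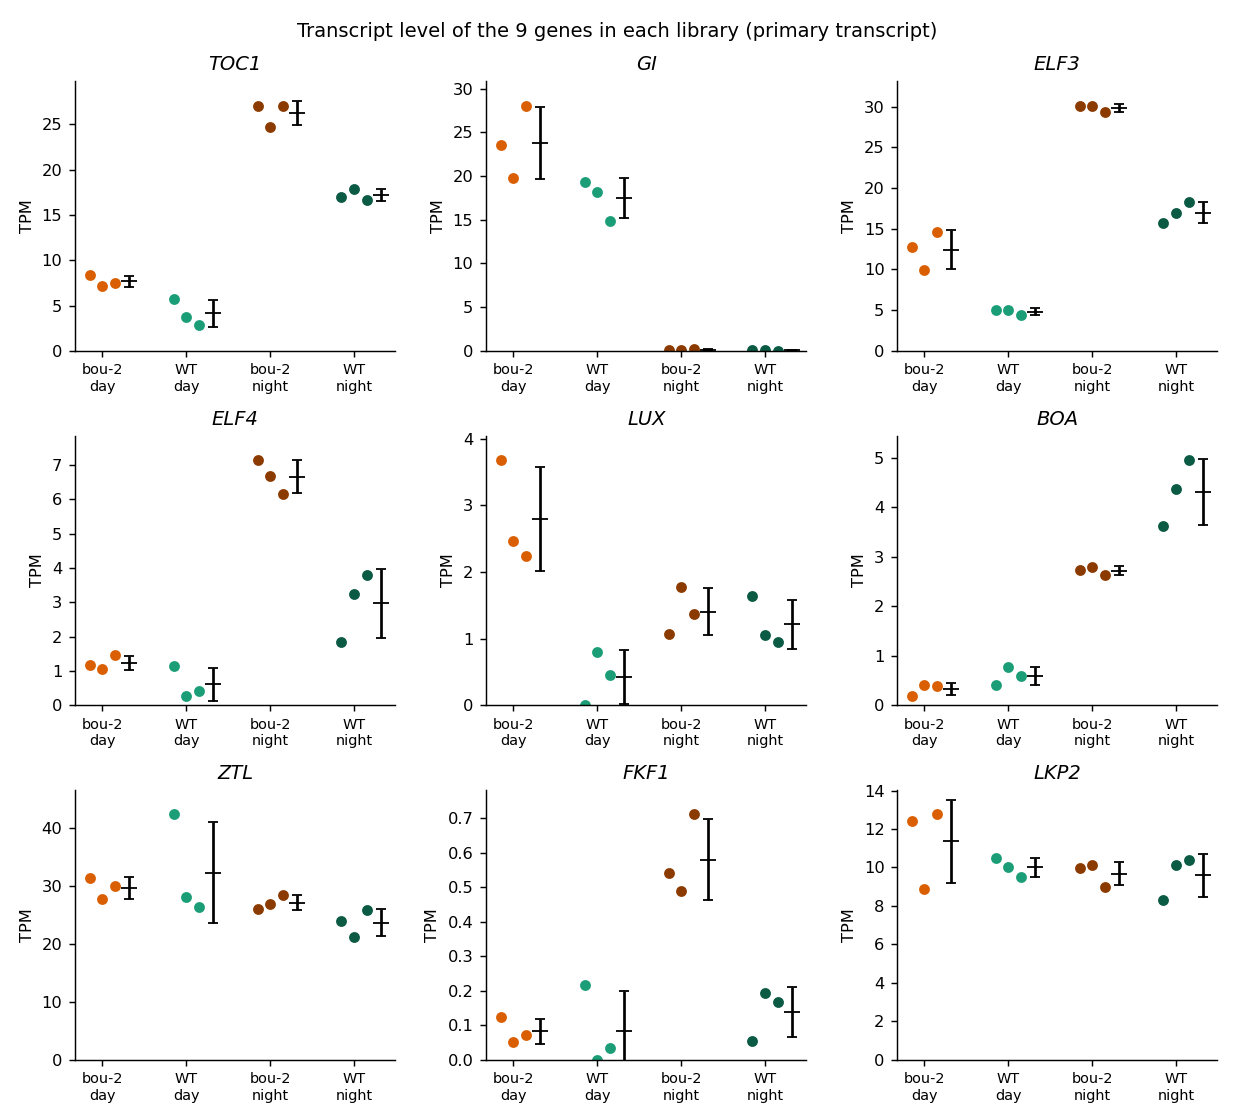
TPM of each of the 9 genes in the 12 libraries, 1 panel per gene with its own axis from 0. Points are libraries, and the black bar beside each group is the mean with its SD (n = 3). TOC1, ELF3, ELF4 and BOA are higher at night, GI is near 0 at night, and ZTL ranges from 21.3 to 42.4 TPM over the 12 libraries.

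The comparison of the genotypes asked whether transcript levels in the bou-2 line differed from WT at each harvest time. At day TOC1, ELF3 and LUX rose in bou-2 and no member fell, 3 of 9 genes called against 27.6% of all 20458 genes tested (14.8% higher). The median log2 fold change of the 9 genes was 0.37, and that of all genes -0.04. At night TOC1, GI and ELF3 rose and none fell, again 3 of 9, against 27% of all genes (14.8% higher), with a median of 0.51 for the 9 genes and 0.02 for all genes. The share of members called was therefore near the background at both times. The TPM values of bou-2 and WT did not overlap for 4 of the 9 genes at day and for 7 of the 9 at night, against 37.4% and 56.9% of all genes. FKF1 passed the filter through the bou-2 night libraries alone, and without it 4 of 8 genes at day and 6 of 8 at night did not overlap, with median log2 fold changes of 0.60 and 0.31.

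ELF3, the scaffold of the evening complex, showed the clearest difference. It stood at 12.8, 9.91 and 14.6 TPM in bou-2 at day, against 5.03, 5.06 and 4.35 TPM in WT at day. At night it stood at 30.1, 30.1 and 29.3 TPM in bou-2, against 15.7, 17.0 and 18.3 TPM in WT. All bou-2 libraries lay above all WT libraries of the same time, and the lowest bou-2 night library was far above the highest WT one. The log2 fold change was 1.28 ± 0.10 (SE, adjusted p = 4.34e-05) at day and 0.71 ± 0.10 (SE, adjusted p = 0.000783) at night, and ELF3 was called at both times in each of the 21 alternatives run for each time. An annotated antisense RNA of 183 bases (AT2G08135) lies within the gene, and because the library kit does not mark strand its reads cannot be told apart from those of ELF3.

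TOC1, the evening repressor of CCA1 and LHY, was also higher in bou-2 at both times. Its level was 8.36, 7.17 and 7.45 TPM in bou-2 at day, against 5.75, 3.74 and 2.89 TPM in WT at day. At night it was 27.0, 24.7 and 27.1 TPM in bou-2, against 17.0, 17.9 and 16.7 TPM in WT. The groups did not overlap at either time, although WT day replicate 1 was nearer to the bou-2 libraries than the other two. The log2 fold change was 0.83 ± 0.17 (SE, adjusted p = 0.00589) at day and 0.51 ± 0.16 (SE, adjusted p = 0.0446) at night. The night call lay close to the threshold: it was lost when any 1 of the 3 bou-2 day, 3 bou-2 night or 3 WT night libraries was left out, with adjusted p between 0.0573 and 0.142, while the log2 fold change stayed between 0.47 and 0.55. It was also lost with DESeq2's size factors (adjusted p = 0.0566) and with no filter on low counts (adjusted p = 0.0503), and so in 11 of 21 alternatives. The day call was lost when only the 6 day libraries were fitted (adjusted p = 0.0538).

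LUX, the DNA-binding subunit, was the least stable in its assignment to transcripts. The primary transcript AT3G46640.1 stood at 3.68, 2.46 and 2.23 TPM in bou-2 at day, against 0, 0.802 and 0.461 TPM in WT at day. The second transcript, AT3G46640.2, ranged from 1.73 to 2.60 TPM in bou-2 at day, against 0.737 to 1.06 TPM in WT at day. In the WT day library with 0 for the first transcript all reads were given to the second, so the sum over both is the steadier measure. Summed over its transcripts LUX reached 5.60, 5.06 and 4.43 TPM in bou-2 at day, against 1.06, 1.55 and 1.20 TPM in WT at day, with no overlap and little spread within a group.

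For the primary transcript of LUX the log2 fold change at day was 2.60 ± 0.83 (SE, adjusted p = 0.0444), and the call was lost in 12 of 21 alternatives, among them the omission of any 1 of the 3 bou-2 day, 3 bou-2 night or 3 WT night libraries or of WT day replicate 3 (adjusted p 0.0571 to 0.0993). With counts summed per gene the log2 fold change was 1.88 ± 0.21 (SE, adjusted p = 8.83e-05). At night the sum was 2.15, 2.38 and 1.76 TPM in bou-2, against 1.63, 1.38 and 1.28 TPM in WT, and the summed counts gave a log2 fold change of 0.46 ± 0.21 (SE, adjusted p = 0.12), while the primary transcript gave 0.11 ± 0.78 (SE, adjusted p = 0.944). The bou-2 libraries lay above the WT libraries at night too, but the difference did not pass the test. In the RefSeq annotation the end of LUX overlaps AT3G46650 on the opposite strand (chr3:17185453-17186959), which was at 4.78 to 5.25 TPM in bou-2 at day and 6.34 to 7.53 TPM in WT at day. The part of its reads in the LUX values was not tested.

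**Figure D3:**
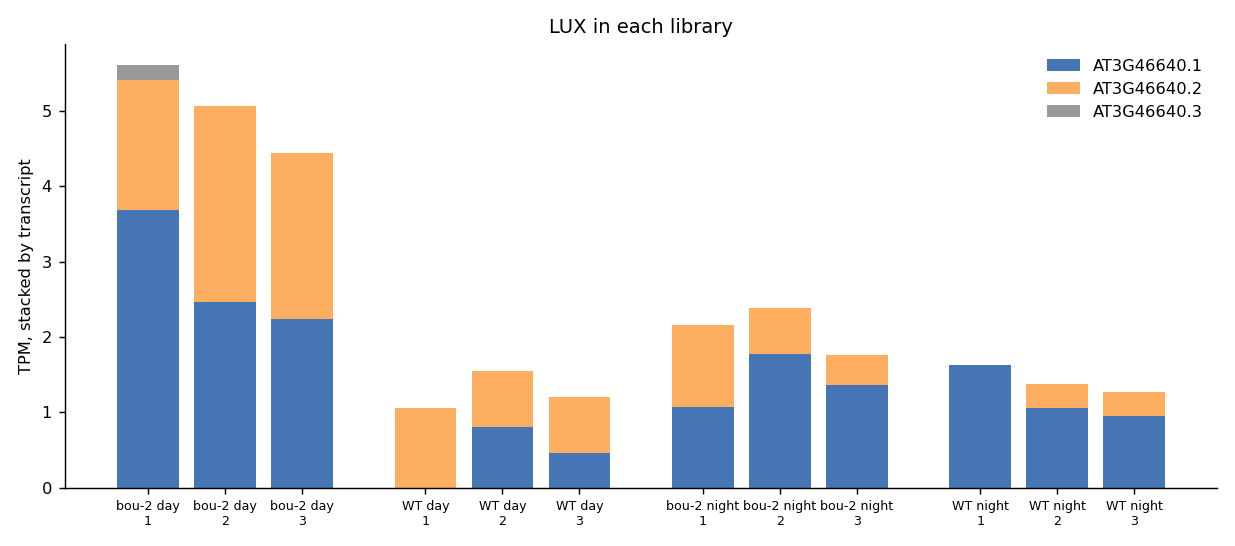
TPM of LUX in each of the 12 libraries, stacked by the 3 annotated transcripts, with the y axis from 0. The summed bars of the 3 bou-2 day libraries reach 4.43 to 5.60 TPM and those of the other 9 libraries stay between 1.06 and 2.38 TPM, while the split between AT3G46640.1 and AT3G46640.2 varies among libraries of 1 group.

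GI, a large protein that stabilizes ZTL and acts with FKF1, was almost silent at night and was called higher in bou-2 at that time. It had 8, 12 and 19 estimated counts (0.0924, 0.115 and 0.214 TPM) in bou-2 at night, against 4, 4 and 3 counts (0.0542, 0.0541 and 0.0308 TPM) in WT at night. Every bou-2 library was above every WT library, but the call rests on 39 counts against 11. GI entered the test through the day libraries, and with only the night libraries fitted it had no result. The log2 fold change was 1.50 ± 0.39 (SE, adjusted p = 0.0189). It was lost without bou-2 night replicate 3 (1.07, adjusted p = 0.141), without WT night replicate 3 (1.22, adjusted p = 0.0881), and with limma on log2(TPM + 1) or log2(TPM + 0.1), where it was 0.12 and 0.69. At day GI stood at 23.5, 19.8 and 28.1 TPM in bou-2, against 19.3, 18.2 and 14.9 TPM in WT, a log2 fold change of 0.37 ± 0.16 (SE) that did not pass the test (adjusted p = 0.118) although the groups did not overlap.

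ELF4, the small subunit of the evening complex, and BOA were not called at either time, although each was called at night in 4 of 21 alternatives. ELF4 stood at 7.15, 6.69 and 6.17 TPM in bou-2 at night, against 1.85, 3.26 and 3.80 TPM in WT at night, without overlap. The log2 fold change was 1.05 ± 0.44 (SE, adjusted p = 0.116), it passed with counts summed per gene, with limma on log2(TPM + 1), with only the 6 night libraries and without WT day replicate 1 (adjusted p 0.00973 to 0.0464), and the libraries behind it held 63 to 81 counts in bou-2 and 16 to 43 counts in WT. At day ELF4 had 9 to 10 counts in bou-2 and 3 to 14 counts in WT, with a log2 fold change of 0.88 ± 0.49 (SE, adjusted p = 0.229).

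BOA was the only member of the evening complex group with a negative log2 fold change at both times. It stood at 2.73, 2.80 and 2.64 TPM in bou-2 at night, against 3.62, 4.37 and 4.96 TPM in WT at night. All 3 bou-2 values were below the WT values, with a log2 fold change of -0.77 ± 0.31 (SE, adjusted p = 0.0969). It was called lower from summed counts, from only the 6 night libraries, by limma on log2(TPM + 1) and by DESeq2 (adjusted p 0.0129 to 0.0353). At day BOA stood at 0.186, 0.418 and 0.384 TPM in bou-2, against 0.415, 0.782 and 0.587 TPM in WT, with overlapping groups. These rest on 4 to 11 counts in bou-2 and 14 to 25 counts in WT. The log2 fold change of BOA at day was -0.92 ± 0.36 (SE, adjusted p = 0.0852). Without WT day replicate 1 both ELF4 (1.61, adjusted p = 0.0293) and BOA (-1.15, adjusted p = 0.0372) passed at day, so that 5 members were called there, 4 higher and 1 lower. Over all genes that fit called 5188 of 20693 at day, 2755 higher and 2433 lower. LUX and BOA were the only pair among the 36 pairs of members that shared any 31-base word in their annotated transcripts. They shared 28 words, with each word and its reverse complement counted separately. By default kallisto uses words of 31 bases to place reads.

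Within the ZTL family no member differed between the genotypes by the test at either time. ZTL stood at 31.5, 27.8 and 30.1 TPM in bou-2 at day, against 42.4, 28.1 and 26.5 TPM in WT at day, where replicate 1 alone was high. At night ZTL was 26.1, 26.9 and 28.6 TPM in bou-2, against 24.0, 21.3 and 25.8 TPM in WT. The log2 fold changes were -0.19 ± 0.13 (SE, adjusted p = 0.325) and 0.10 ± 0.13 (SE, adjusted p = 0.662). The primary transcript of LKP2 ranged from 8.89 to 12.8 TPM in bou-2 and 9.52 to 10.5 TPM in WT at day. At night it averaged 9.68 ± 0.599 TPM in bou-2 and 9.60 ± 1.13 TPM in WT (SD, n = 3 each). The log2 fold changes were 0.09 (adjusted p = 0.645) and -0.09 (adjusted p = 0.626). Summed over its transcripts LKP2 was at 11.4 to 12.8 TPM in bou-2 at day, above all WT libraries. The summed counts gave a log2 fold change of 0.20 at day that did not pass edgeR's quasi-likelihood test (adjusted p = 0.127).

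FKF1, the flowering-time member of the family, was barely detected. It had 23 to 31 estimated counts (0.541, 0.488 and 0.710 TPM) in bou-2 at night, against 2 to 8 counts (0.0551, 0.193 and 0.167 TPM) in WT at night. In all other libraries FKF1 had 0 to 11 counts, so that it entered the test only because of its level in the bou-2 night libraries. The log2 fold change at night was 1.93 ± 0.92 (SE) and did not pass the test (adjusted p = 0.161), but passed with limma on log2(TPM + 1) (adjusted p = 0.0128), limma on log2(TPM + 0.1) (adjusted p = 0.0417) and only the 6 night libraries (adjusted p = 0.0285), and at day it was -0.08 ± 1.00 (SE, adjusted p = 0.966). A second LKP2 transcript, AT2G18915.1, had 95.5 estimated counts in bou-2 day replicate 2 and at most 0.0001 TPM elsewhere, and ZTL's second transcript was at 0 in all 12 libraries.

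**Figure D4:**
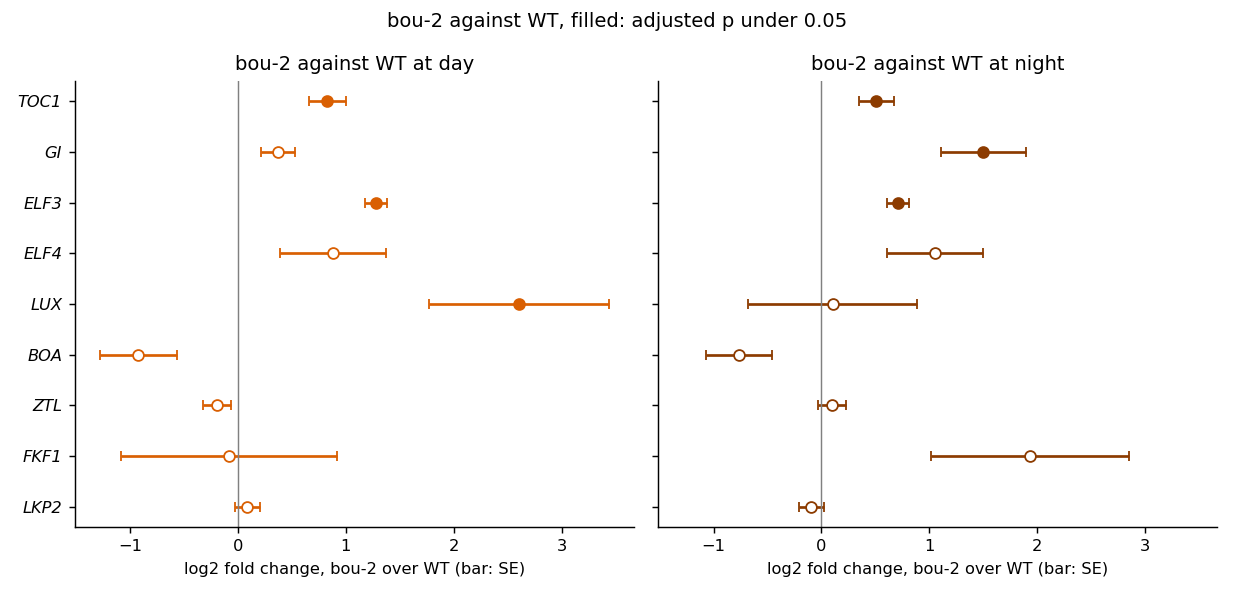
Log2 fold change of bou-2 over WT at day and at night for the 9 genes, with the SE as bars. Filled points passed an adjusted p of 0.05 in edgeR's quasi-likelihood test. ELF3 and TOC1 are filled in both panels, LUX at day and GI at night, and the BOA points lie left of 0 in both.

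Whether the bou-2 difference itself changed between day and night was tested as an interaction. No member was called by edgeR's quasi-likelihood test, against 1.18% of all genes (0.538% larger at day, 0.645% smaller), although 3 had an unadjusted p under 0.05 (GI, ELF3 and LUX). ELF3 came nearest, with a difference of 0.57 ± 0.14 on the log2 scale (SE, adjusted p = 0.0954), and DESeq2's Wald test called it and no other member. With counts summed per gene LUX alone was called: its bou-2 difference was larger at day by 1.42 ± 0.30 on the log2 scale (SE, adjusted p = 0.0364). For GI the difference was -1.14 ± 0.43 (SE, adjusted p = 0.243). A call at only 1 time, as for GI and for the primary transcript of LUX, therefore does not show that the genotypes differed more at that time.

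The comparison of day with night within a genotype asked whether each gene differed between the harvests before and after light onset. As taken here, these harvests lie near light onset and do not follow a gene over the whole light cycle. From them a change of level and a shift in timing cannot be told apart. In bou-2 GI was higher at day and TOC1, ELF3, ELF4 and BOA were lower, 5 of 9 genes called, against 15.4% of all genes (7.68% higher, 7.69% lower). In WT GI and ZTL were higher at day and TOC1, ELF3, ELF4 and BOA were lower, 6 of 9, against 9.46% of all genes (5.58% higher, 3.88% lower). The TPM values of day and night did not overlap for 7 of the 9 genes in bou-2 and for 7 in WT, against 45.5% and 30.6% of all genes. The median log2 fold change of day over night was -1.13 for the 9 genes and -0.01 for all genes in bou-2, and -1.38 and 0.01 in WT. Without FKF1, 6 of 8 genes did not overlap in bou-2 and 7 of 8 in WT, with medians of -0.43 and -1.54. GI is counted in each of these shares, although it passed the filter through the day libraries, where it was high. With 1 library left out the number called in WT was 4 to 6, the 4 being without WT night replicate 2 or WT night replicate 3, where both ELF4 and ZTL were lost. Over all genes those fits called 1183 of 20800 and 1278 of 20738.

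GI had by far the widest range, 1554 to 1609 counts at day against 8 to 19 at night in bou-2, and 1786 to 1997 counts at day against 3 to 4 at night in WT. The log2 fold change of day over night was 7.54 ± 0.23 in bou-2 (SE, adjusted p = 9.48e-08) and 8.67 ± 0.27 in WT (SE, adjusted p = 9.75e-08). BOA followed in the opposite direction, with -2.88 ± 0.35 in bou-2 (SE, adjusted p = 0.000383) and -2.72 ± 0.33 in WT (SE, adjusted p = 0.00054). TOC1 was 3.10-fold lower at day in bou-2 and 3.88-fold lower in WT, with log2 fold changes of -1.63 ± 0.17 (SE, adjusted p = 0.00012) and -1.95 ± 0.17 (SE, adjusted p = 6.54e-05).

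ELF3 was 2.19-fold lower at day in bou-2 and 3.25-fold lower at day in WT, with log2 fold changes of -1.13 ± 0.10 (SE, adjusted p = 4.2e-05) and -1.70 ± 0.10 (SE, adjusted p = 3.62e-06). ELF4 gave -2.32 ± 0.47 in bou-2 (SE, adjusted p = 0.00889) and -2.15 ± 0.48 in WT (SE, adjusted p = 0.0193), and the WT call was lost without WT day replicate 3 (adjusted p = 0.0555), WT night replicate 2 (adjusted p = 0.063) or WT night replicate 3 (adjusted p = 0.0679). LUX summed per gene was higher at day in bou-2, by 1.44 ± 0.20 on the log2 scale (SE, adjusted p = 0.000533), and differed by 0.03 ± 0.22 in WT (SE, adjusted p = 0.958). Its primary transcript alone was not called in either genotype (1.12 in bou-2, adjusted p = 0.401, and -1.38 in WT, adjusted p = 0.377).

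ZTL was 1.47-fold higher at day in WT, a log2 fold change of 0.56 ± 0.13 (SE, adjusted p = 0.0238), and 1.21-fold higher in bou-2, where the test was not passed (0.27 ± 0.13, SE, adjusted p = 0.205). The WT call was lost without any 1 of the 3 WT night libraries (adjusted p 0.0501 to 0.107), and without WT day replicate 1 the log2 fold change was 0.37 (adjusted p = 0.0238). The primary transcript of LKP2 gave 0.36 ± 0.12 in bou-2 (SE, adjusted p = 0.0642) and 0.18 in WT (adjusted p = 0.415). The bou-2 difference was called in 5 of 21 alternatives, among them counts summed per gene (0.49, adjusted p = 0.00406), which take in the second transcript of bou-2 day replicate 2, and the fit without that library (0.48, adjusted p = 0.0271). FKF1 gave -2.66 ± 0.98 in bou-2 (SE, adjusted p = 0.101), called in 7 of 21 alternatives, and -0.64 ± 0.95 in WT (SE, adjusted p = 0.767), on the low counts given above. Because FKF1 passed the filter only through the bou-2 night libraries, where it was high, the 7 calls in bou-2 are no support for a difference.

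**Figure D5:**
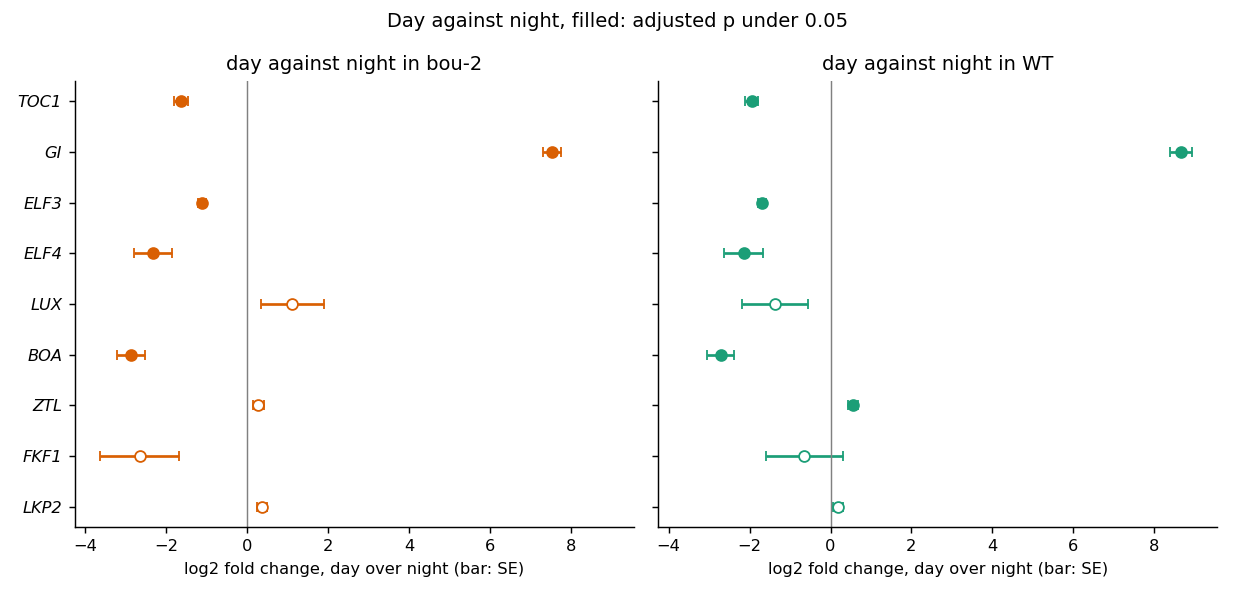
Log2 fold change of day over night for the 9 genes in bou-2 and in WT, with the SE as bars and the same x axis in both panels. Filled points passed an adjusted p of 0.05 in edgeR's quasi-likelihood test. GI lies at 7.54 and 8.67, TOC1, ELF3, ELF4 and BOA lie left of 0 in both panels, and ZTL is filled in WT.

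Genes of other arms of the clock were called in both directions. Of 19 morning and day genes, 1 rose and 4 fell in bou-2 at day, and 2 rose and 5 fell at night, against the 27.6% and 27% of all genes called. CCA1 and LHY, the dawn repressors, fell in bou-2 at night by 0.66 (adjusted p = 0.00249) and 0.73 (adjusted p = 0.00361) on the log2 scale and were not called at day (-0.15, adjusted p = 0.39, and -0.38, adjusted p = 0.0654). The difference between the times was called for neither (0.51, adjusted p = 0.177, and 0.35, adjusted p = 0.43). PRR7, a daytime repressor and a target of the evening complex, was at 22.3 ± 3.36 TPM in bou-2 at day against 33.3 ± 4.50 TPM in WT at day, and at 3.76 ± 1.35 TPM in bou-2 at night against 1.05 ± 0.0849 TPM in WT at night (SD, n = 3 each). It fell by 0.66 on the log2 scale at day (adjusted p = 0.0286) and rose by 1.74 at night (adjusted p = 0.000522), and the difference between the times was called (-2.40, adjusted p = 0.00674). RVE2, a MYB factor related to CCA1, rose in bou-2 at day by 1.54 (adjusted p = 0.000982), and its difference between the times was not called (1.34, adjusted p = 0.0719). RVE7 rose in bou-2 at night by 1.32 (adjusted p = 0.000177) and was not called at day (0.36, adjusted p = 0.0599). Its difference between the times was called (-0.95, adjusted p = 0.0404). PRR7 and RVE7 were the 2 of the 19 called for that difference, against 1.18% of all genes. Between day and night, 12 of the 19 were higher at day and 3 lower in bou-2, against 7.68% and 7.69% of all genes, and 10 were higher and 3 lower in WT, against 5.58% and 3.88% of all genes.

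Of 9 relatives, targets and partners of the evening complex, COP1 rose (0.30, adjusted p = 0.017) and PIF4 fell in bou-2 at day, and none was called at night, with 0 of 9 by edgeR's quasi-likelihood test and by DESeq2 and 3 at an unadjusted p under 0.05. The shares of all genes called were 27.6% at day and 27% at night. PIF4, a growth-promoting factor repressed by the evening complex, was at 5.45 ± 0.156 TPM in bou-2 at day against 13.2 ± 2.11 TPM in WT at day (SD, n = 3 each), a log2 fold change of -1.37 (adjusted p = 0.000244). At night it was at 1.11 TPM in bou-2 and 0.904 TPM in WT, and the difference between the times was called (-1.54, adjusted p = 0.0181). PIF5, a related growth regulator, was at 50.7 ± 4.96 TPM in bou-2 at day against 56.2 ± 2.43 TPM in WT at day (SD, n = 3 each), a log2 fold change of -0.24 that did not pass the test (adjusted p = 0.313).

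Of 15 genes that act with or below ZTL and FKF1, 13 passed the filter. At day ASK1, a subunit of the ubiquitin ligase, and the heat shock protein gene HSP90.1 rose in bou-2. At night ASK1, HSP90.1, HSP90.2 and HSP90.3 rose and the flowering repressors CDF1 and CDF3 fell. These were 2 of 13 at day and 6 of 13 at night, against 27.6% and 27% of all genes. CDF1 was at 50.5 ± 4.15 TPM in bou-2 at night against 97.1 ± 10.7 TPM in WT at night (SD, n = 3 each), a log2 fold change of -1.05 (adjusted p = 0.000561), and HSP90.1 gave 2.43 (adjusted p = 0.00179). HSP90 proteins are chaperones, among others of ZTL. CO, the CDF target, was at 2.11 TPM in bou-2 and 3.62 TPM in WT at night (log2 fold change -0.88, adjusted p = 0.0627), and FT and TSF, the flowering signals, stayed below the filter.

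For each member the genes with the most similar profile were sought among 15218 genes, as Pearson's r of log2(TPM + 1) over the 12 libraries. TOC1 was closest to BBX8 (r = 0.994) and WRKY39 (r = 0.989), GI to PRR9 (r = 0.995) and ASG4 (r = 0.995), and ELF3 to CAM4 (r = 0.987) and AT4G31420 (r = 0.984). ELF4 was closest to AT5G63020 (r = 0.977) and NF-YC4 (r = 0.974), and BOA to RVE1 (r = 0.978) and AT3G56680 (r = 0.974). For LUX these were AT1G28395 (r = 0.943) and AT4G21705 (r = 0.933), for ZTL AT5G35460 (r = 0.962) and AT5G15260 (r = 0.960), for FKF1 SWAP70 (r = 0.944) and SAD1 (r = 0.943), and for LKP2 ARPC3 (r = 0.885) and AT4G03250 (r = 0.884). The 12 points of each comparison fall into the 4 groups and share their libraries and depth, so these values describe mainly how alike the group means are. PRR9, the nearest to GI, was at 64.0 TPM in bou-2 and 69.8 TPM in WT at day, and at 0.0806 TPM in bou-2 and 0.0136 TPM in WT at night.

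The genes lie on chromosomes 1, 2, 3 and 5 (TAIR10.1). TOC1 (chr5:24674963-24678550) and GI (chr1:8061751-8067790) overlap no annotated gene, nor do ELF4, which has a single exon, and ZTL (chr5:23241320-23244590). BOA (chr5:24003888-24007844) overlaps AT5G59580 on the opposite strand, a gene at no more than 0.419 TPM in any library. FKF1 (chr1:25508639-25510907) shares its last 21 bases with AT1G68060, which was at 20.1 to 20.8 TPM in bou-2 at night and 24.5 to 26.5 TPM in WT at night. The part of its reads in the FKF1 values was not tested. LKP2 (chr2:8194512-8197483) overlaps the noncoding AT2G18917, at 0.944 to 3.68 TPM over all libraries.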

How the data were processed

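Paired reads of 150 bp from an unstranded kit, 12 libraries per lane, were quantified by the authors with kallisto 0.43.0 on the TAIR10 transcriptome, and the submitters' processing notes also name CASAVA and sleuth 0.28.1. The authors deposited estimated counts per transcript without normalization and TPM scaled per library. Their group means, fold changes and q-values were not used, and 0 per-sample columns were left out. Of 41415 lines, 23 repeats were dropped, leaving 41392 transcripts.

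Columns were assigned to groups by name. The deposited estimated counts were rounded and tested with edgeR 4.0.16 (R 4.3.3): TMM, filterByExpr (minimum count 10, total 15, proportion 0.7), 1 mean per group over 12 libraries, glmQLFTest and Benjamini-Hochberg adjustment. The SE was the log2 fold change divided by the root of F. The biological coefficient of variation was 28.4%. Named genes were the members, BOU, members of 3 pathway lists and the 2 most similar genes per member with a mean of at least 5 TPM in a group. Members and lists were chosen with earlier results of these data known. Alternatives used DESeq2 1.42.0 and limma 3.58.1, and the fits were tested on simulated data. The upstream window of ELF4 is not reported here. The labels call the libraries biological replicates, but no source says which plants each came from, so p-values reflect only how much these libraries vary, which may be technical.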

Additional observations from a re-analysis of the deposited data

How the results depend on the processing

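Over 45 member results and 931 values under alternatives, 844 kept direction and side of the threshold, 38 lost a call, 32 gained one and 17 turned direction, each of these 17 for a result not called. The number of members called in bou-2 against WT at day was 3 and became 1 with only the 6 libraries compared. It was 2 to 5 with 1 library left out, 5 being without WT day replicate 1. Over all genes the day calls were 5648 of 20458, 2274 of 19831 with only the 6 libraries and 5188 of 20693 without WT day replicate 1. At night the number of members called was 3 and became 5 with per-gene sums of counts, with limma on log2(TPM + 1) and with only the 6 libraries. With 1 library left out it was 1 to 4 (1 without bou-2 night replicate 3 or WT night replicate 3). GI was not among the 5 with limma and had no result with only the 6 libraries. FKF1, which passed the filter through the bou-2 night libraries alone, was among the 5 with limma and with only the 6 libraries. Over all genes the night calls were 5521 of 20458. They were 6691 of 20478 with summed counts, 5896 of 20458 with limma on log2(TPM + 1) and 7559 of 19919 with only the 6 libraries. Without bou-2 night replicate 3 they were 3519 of 20706, and without WT night replicate 3 they were 4096 of 20738. For day against night in bou-2 the number of members called was 5 and became 8 with summed counts and with only the 6 libraries. In WT it was 6 and became 4 to 6 with 1 library left out. For the interaction it was 0 and became 1 with DESeq2's Wald test and with summed counts. Over all genes the calls for day against night in bou-2 were 3146 of 20458. They were 4088 of 20478 with summed counts and 4562 of 19850 with only the 6 libraries. FKF1 was also among the 8 members in bou-2 with summed counts and with only the 6 libraries. The cause of these changes was not tested.

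Directions turned for FKF1 at day with limma (0.003 and 0.15), with the replicate block (0.11) and with 1 library left out (-0.63 to 1.88 over all), for LUX at night with 1 library left out (-0.11 to 0.37 over all), for LKP2 at night with limma (0.016 and 0.018), and for LUX in WT, day against night, with summed counts (0.026). In the interaction they turned with limma on log2(TPM + 1) for GI (0.30) and BOA (0.24), and with 1 library left out for ELF4 (-0.52 to 0.55 over all) and BOA (-0.44 to 0.17 over all).

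Same-numbered libraries did not deviate together (18 correlations, -0.121 to 0.067), which shows no pairing by number but cannot exclude one. The replicate block gave 2, 3, 5, 6 and 0 members in the 5 comparisons, and over all genes 4865, 4752, 2489, 1496 and 96 of 20458. Only the 6 libraries gave fewer calls over all genes at day, 2274 in place of 5648, and for WT day against night, 691 in place of 1936. They gave more at night, 7559 in place of 5521, and for day against night in bou-2, 4562 in place of 3146. The interaction gave 242 calls over all genes, 1040 with DESeq2, 411 with summed counts and 96 with the block. With limma on log2(TPM + 1), 3915 genes were higher and 1703 lower at day in place of 3021 and 2627, 3998 and 1898 at night in place of 3022 and 2499, 1175 and 2739 for day against night in bou-2 in place of 1572 and 1574, and 729 and 1607 in WT in place of 1142 and 794, and the median log2 fold change of all genes was -0.118 and -0.098 for day against night in bou-2 and in WT in place of -0.008 and 0.011. FKF1, ELF4 at day, BOA at day and GI at night rest on few counts, where a change of several fold can go undetected.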
